A study of Mus musculus with 2 samples.

Results

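The imprinted Dlk1-Dio3 cluster of microRNA (miRNA) genes lies on the plus strand of mouse chromosome 12. Its members were taken by position alone: every listed miRNA gene that GENCODE M21 places on the plus strand of chromosome 12 wholly between bases 109500000 and 109800000 of mm10. This gave 59 of the 2202 listed miRNA genes, spread over 203 kb. The data are small RNA sequencing libraries of heart tissue from male B6CASTF1/J mice aged 25 days, a first-generation cross of C57BL/6J with the CAST strain, and no treatment is labelled. Both libraries form 1 group, numbered replicates 1 and 2, and the labels define no contrast. The labels call them biological replicates of animals with different numbers, yet list a single donor identifier for both. They are taken here as libraries of 2 animals, an assumption on which every SD over replicates rests. The age labels give days, while a free-text description gives months, and days were used.

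MicroRNAs are cut from hairpins in longer transcripts, and the bases 2 to 8 of the mature strand, the seed, pair with target messenger RNAs. The Dlk1-Dio3 domain is imprinted, which means that its genes are read from the chromosome of 1 parent: Dlk1, Rtl1 and Dio3 from the father's copy, and the long RNAs Meg3, Rian and Mirg with the miRNAs of the domain from the mother's copy. The miRNAs are known to be abundant in embryo, placenta and brain. The deposited counts are not split by parental allele, so imprinting itself was not measured.

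The counts are whole reads per gene on the strand of the gene, 4930853 assigned reads in replicate 1 and 5229819 in replicate 2. Levels are assigned counts scaled to a total of 1000000 (CPM), and 1 count is worth 0.203 CPM in replicate 1 and 0.191 CPM in replicate 2. With 0 counts a level of up to 0.608 CPM (replicate 1) or 0.574 CPM (replicate 2) is still allowed, 3 counts of the total, and this limit and all intervals cover counting error only. Reads placed at several loci, 41.6% and 37.4% of all reads, are in no gene's count. The heart labels were checked against miRNAs of heart muscle: the sum of Mir499, Mir208a and Mir208b was 4486 CPM in replicate 1 and was 6512 CPM in replicate 2. Of these, Mir208a had 1361 CPM in replicate 1 and 3562 CPM in replicate 2. Mir499 had 2933 and 2758 CPM, and Mir208b 191 and 192 CPM. The libraries stood apart in red cell miRNAs, as Mir451a and Mir144 had a sum of 21812 CPM in replicate 1 against 1161 CPM in replicate 2. In whole tissue, fewer cells of a type and less RNA per cell cannot be told apart.

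The sequences of the 4 most abundant members, and of Mir154 and Mir409, which differed between the libraries in opposite directions, are given here from RefSeq (GRCm38.p6), 5′ to 3′ with the seed in capitals. The counts do not separate the 2 arms of a hairpin, so both arms are shown.
mmu-miR-127-5p: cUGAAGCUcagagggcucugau
mmu-miR-127-3p: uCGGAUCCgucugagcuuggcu
mmu-miR-411-5p: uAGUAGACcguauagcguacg
mmu-miR-411-3p: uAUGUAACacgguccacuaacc
mmu-miR-541-5p: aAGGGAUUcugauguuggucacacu
mmu-miR-541-3p: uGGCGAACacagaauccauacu
mmu-miR-379-5p: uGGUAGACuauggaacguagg
mmu-miR-379-3p: uAUGUAACaugguccacuaacu
mmu-miR-154-5p: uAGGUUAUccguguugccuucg
mmu-miR-154-3p: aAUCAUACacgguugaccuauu
mmu-miR-409-5p: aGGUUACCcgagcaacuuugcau
mmu-miR-409-3p: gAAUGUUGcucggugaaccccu

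Of the 59 members, 57 have mature sequences in RefSeq, and their 106 entries hold 97 different seeds. For Mir376c, Mir487b, Mir539 and Mir485 only 1 arm is listed, so a seed shared through the other arm would be missed. Among the listed entries, 5 seeds occur in more than 1 detected member. These are AUGUAAC in miR-379-3p and miR-411-3p above, and the pairs below: AGGUCAC in miR-370-5p and miR-1193-3p, GGUAGAC in miR-379-5p and miR-1193-5p, GGUUGUC in miR-494-5p and miR-410-5p, and UGGAUAU in miR-376c-5p and miR-376b-5p. The arm miR-370-3p is added because Mir370 had the lowest ratio between the libraries among the detected members.
mmu-miR-370-5p: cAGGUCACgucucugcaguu
mmu-miR-370-3p: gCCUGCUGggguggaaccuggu
mmu-miR-1193-3p: uAGGUCACccguuuuacuauc
mmu-miR-1193-5p: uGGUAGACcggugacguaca
mmu-miR-494-5p: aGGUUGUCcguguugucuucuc
mmu-miR-410-5p: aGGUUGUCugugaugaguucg
mmu-miR-376c-5p: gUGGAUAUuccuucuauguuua
mmu-miR-376b-5p: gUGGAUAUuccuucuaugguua

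The hairpins also share letters, mostly outside the mature strands. The run UACUUG was in the hairpins of 10 members, 16.9% of 59, against 2.32% of all 2202 listed miRNA genes, and the run AGUAUC was in 7 members, 11.9% against 1.86%. Both runs were searched on the hairpin strand only, in hairpin sequences of GENCODE M21, and were chosen after these sequences were seen. All 10 members with UACUUG lay downstream of Rian, 6 of them before the annotated Mirg transcript and 4 within it. In Mir300 the run UACUUG reaches into the start of the mature strand miR-300-5p. Of 5 listed genes with both runs, 4 were members: Mir411, Mir494, Mir487b and Mir369. The RefSeq hairpins of 3 of them show the runs, in capitals, near the ends.
Mir411 hairpin: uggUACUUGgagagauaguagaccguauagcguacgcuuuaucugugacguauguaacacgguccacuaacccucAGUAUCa
Mir494 hairpin: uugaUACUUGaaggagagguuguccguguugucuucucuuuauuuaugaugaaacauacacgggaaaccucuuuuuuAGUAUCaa
Mir369 hairpin: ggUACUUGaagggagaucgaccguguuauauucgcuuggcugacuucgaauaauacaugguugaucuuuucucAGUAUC

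The cluster held 36980 counts in replicate 1 and 36744 in replicate 2. The cluster share of assigned counts was 0.750% in replicate 1, with an exact Clopper-Pearson interval at 95% of 0.742 to 0.758%, and 0.703% in replicate 2, with 0.695 to 0.710%, or 0.726 ± 0.0335% (SD, n = 2). Detected means at least 10 counts in each library here. By this rule 46 of the 59 members (78.0%) were detected, against 14.5% of the 2143 listed miRNA genes outside the cluster. Of those 2143 genes, 1079 share a run of 20 bases with another listed gene, and 74 of the 1079 were detected. Among the members 8 share such a run, and 4 of these were detected. Reads placed at several loci are not counted, so genes with a shared run can be missed. Of the 13 members not detected, 6 had 1 to 6 counts in at least 1 library, and 7 had 0 counts in both: Mir1906-1, Mir432, Gm23912, Mir882, Mir654, Gm27379 and Mir453. Close to the minimum, 7 detected members had 10 to 20 counts in the lower library. The minus strand of the same window held 7 miRNA genes with 3 counts in replicate 1 and 2 in replicate 2, so nearly all miRNA reads of the window came from the plus strand. The counts are of whole mature miRNAs, so they were not divided by hairpin length, and how well each miRNA was captured in the library was not measured.

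A few members made up most of the cluster. Mir127, best known from placental development, had 13338 counts in replicate 1 and 13088 in replicate 2, or 2604 ± 143 CPM, and held 35.8 ± 0.317% of the cluster counts. It ranked 41 among all listed miRNA genes by mean CPM. Mir411 followed with 892 ± 97.5 CPM, Mir541 with 741 ± 46.3 CPM and Mir379 with 673 ± 50.7 CPM. The 5 most abundant members held 71.8 ± 0.720% of the cluster counts and the 10 most abundant 85.1 ± 1.86%. At the other end, the detected members reached down to Mir136 with 2.07 ± 0.225 CPM, and the median over detected members was 27.4 CPM, against 68.7 CPM over the 310 detected genes outside the cluster. Of all 59 members, 12 were over 100 CPM and 5 were among the 100 most abundant miRNA genes.

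**Figure D1:**
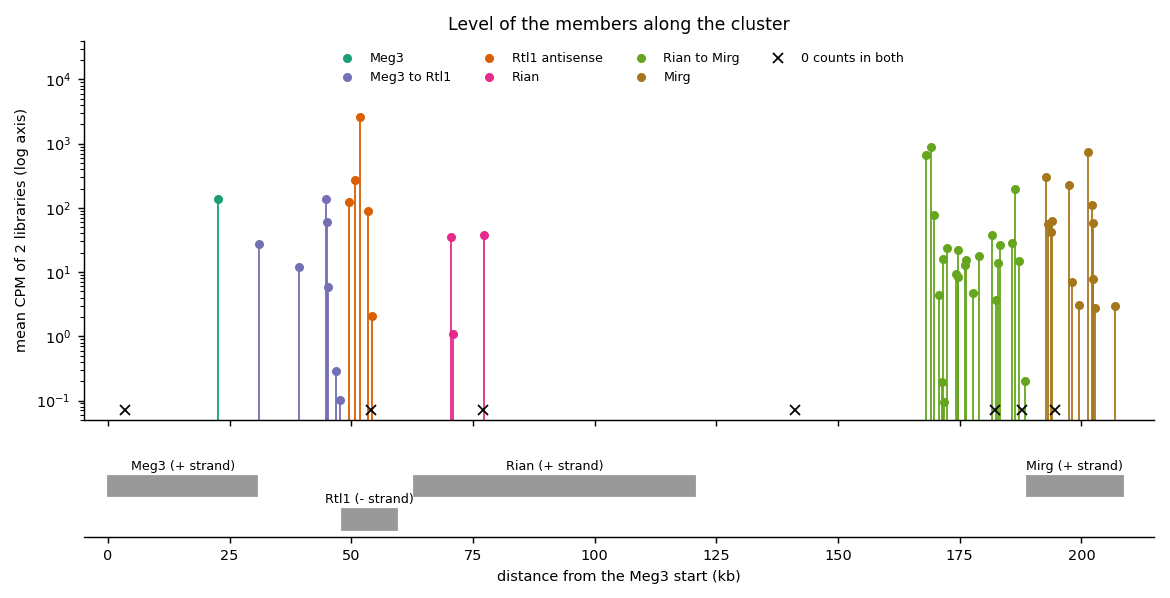
Mean CPM of the 2 libraries (log axis) for each member against distance from the Meg3 start in kb, with the long genes of the domain drawn to scale below. Counts came from 2 stretches, from Meg3 to the early part of Rian and from Mir379 to the end of Mirg, and crosses mark the 7 members with 0 counts in both libraries.

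By position, the members fell into 6 segments: inside Meg3 (109541001 to 109571726), between Meg3 and Rtl1, opposite the Rtl1 gene (109589193 to 109600330, minus strand), inside Rian (109603940 to 109661716), between Rian and Mirg, and inside Mirg (109729764 to 109749460). The 6 members opposite Rtl1 held 42.5 ± 0.646% of the cluster counts (n = 2), the 26 between Rian and Mirg 28.9 ± 1.82% and the 14 inside Mirg 22.3 ± 0.455%. The 7 members between Meg3 and Rtl1 held 3.33 ± 0.353%, the 2 inside Meg3 1.87 ± 0.221% and the 4 inside Rian 1.01 ± 0.592%. The order of the 6 segments was the same in both libraries.

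**Figure D2:**
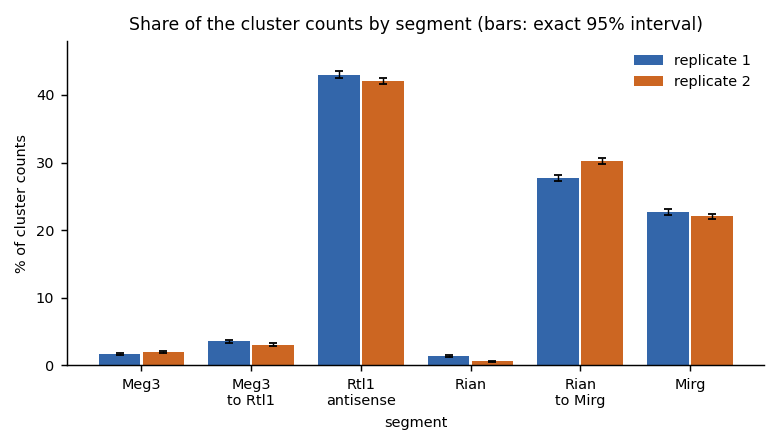
Share of the cluster counts in percent for each of the 6 segments in replicates 1 and 2, with exact 95% intervals that cover counting error only. The bars opposite Rtl1 stand at 43.0 and 42.0%, and the Rian bars at 1.43 and 0.588%.

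Meg3 is a long non-coding RNA of the mother's chromosome. Mir770, which lies in exons of some Meg3 transcripts and introns of others (109563692 to 109563785), had 634 counts in replicate 1 against 745 in replicate 2, or 136 ± 9.81 CPM. The other member inside Meg3, Mir1906-1, had 0 counts in both libraries and shares a run of 20 bases with another listed gene, Mir1906-2, and reads placed at several loci are not counted. Between Meg3 and Rtl1, outside the annotated bounds of both genes, 5 of 7 members were detected. Other genes on the plus strand were not searched for as hosts. Mir337 led them with 816 counts in replicate 1 and 576 in replicate 2, or 138 ± 39.1 CPM (109585789 to 109585885). Mir665, the lowest detected member of this stretch, had 27 and 32 counts. Mir673 begins 264 bases after the annotated end of Meg3.

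Rtl1 is a gene derived from a retrotransposon, read from the father's chromosome and needed in the placenta. The miRNAs opposite it are fully complementary to its messenger RNA and are known to direct its cutting. All 6 members there lie opposite the Rtl1 exon. Mir127 (109592846 to 109592915) had 13338 counts in replicate 1 against 13088 in replicate 2, and Mir433 (109591715 to 109591838) had 1555 and 1174. Mir431, known from muscle regeneration, had 513 and 757 counts, and Mir434 had 469 and 420. Mir136 had 11 and 10 counts, so the count of Mir127 was 1213 times that of Mir136 in replicate 1 (exact 95% interval 677 to 2430) and 1309 times in replicate 2 (711 to 2730), although their starts are 2.48 kb apart. Mir432 had 0 counts in both libraries.

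Rian is a long RNA that also carries many small nucleolar RNAs in its introns. Of its 4 members, all intronic, Mir341 (109611500 to 109611595) had 239 counts in replicate 1 against 120 in replicate 2, and Mir370 (109618258 to 109618336) had 283 against 90. Mir1188 had 5 and 6 counts, and Gm23912 had 0 in both libraries. Both detected members were lower in replicate 2, and the segment as a whole held 527 counts in replicate 1 and 216 in replicate 2, a log2 ratio of -1.37 (exact 95% interval -1.61 to -1.14).

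From Mir379 to Mir410, a block known as the miR-379/miR-410 cluster, 38 members lie within 34.7 kb. They held 50.3% of the cluster counts in replicate 1 and 52.2% in replicate 2, and 32 of the 38 were detected. Mir379, the first of the block, begins 47344 bases after the annotated end of Rian and ends 20639 bases before the annotated start of Mirg. The upstream part of the block thus lies outside both genes, and other host genes were not searched for. In this upstream part Mir411 (109710175 to 109710256) had 4056 counts in replicate 1 against 5023 in replicate 2, and Mir379 (109709060 to 109709125) had 3493 and 3330. Mir487b had 775 and 1232 counts and Mir299a 376 and 425. Of the miR-376 family, known for RNA editing in its seeds, Mir376c had 268 and 105 counts, Mir376a 84 and 58, and Mir376b 25 and 12. The lowest detected member of the stretch was Mir376b at 3.68 ± 1.96 CPM. Mir411, Mir376b, Mir376c and Mir487b share a run of 20 bases with another listed gene, so their counts are uncertain.

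Mirg is a long RNA named for the miRNAs it holds. Of its 14 members 13 were detected, and Mir453 had 0 counts in both libraries. Mir541 (109742409 to 109742498, intronic) had 3814 counts in replicate 1 against 3703 in replicate 2, and Mir382 (109733771 to 109733846, at an exon edge) had 1669 and 1432. Mir154 (109738433 to 109738498, intronic) had 843 and 1461 counts, Mir409 (109743158 to 109743236, intronic) 735 and 383, and Mir485 350 and 270. Mir134, a regulator of dendritic spines in neurons, had 283 and 289 counts. Mir410 was the lowest detected member, with 14 counts in each library.

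**Figure D3:**
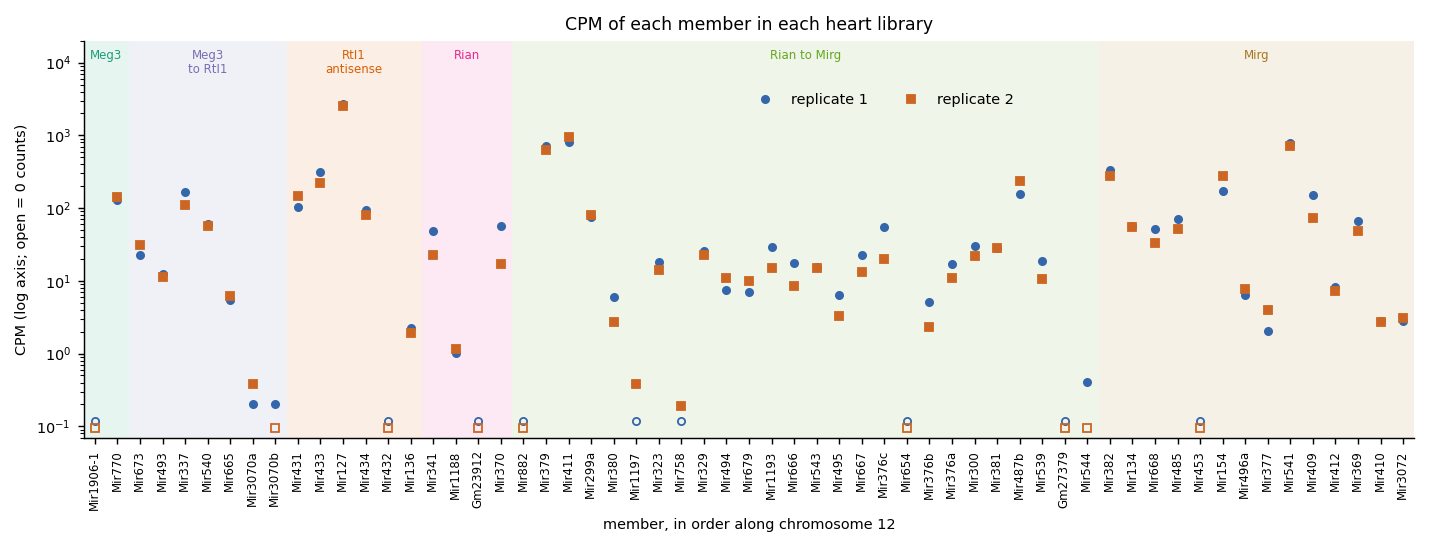
CPM of each of the 59 members in replicate 1 (circles) and replicate 2 (squares), in order along chromosome 12, on a log axis with shading for the 6 segments; open symbols near the bottom mark 0 counts. Mean levels of detected members range from Mir127 at 2604 CPM to Mir136 at 2.07 CPM, while the symbols of 1 member mostly lie close together.

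Neighbours along the chromosome differed widely in level. Over 45 pairs of adjacent detected members the median absolute difference was 2.06 log2 units in replicate 1 and 2.31 in replicate 2. Over the 22 pairs less than 1000 bases apart it was 2.43 and 2.56, and 16 of these pairs in replicate 1 and 14 in replicate 2 differed by over 2-fold. Within 638 bases of Mirg, Mir409 had 735 and 383 counts, Mir412 41 and 38, Mir369 329 and 250, and Mir410 14 and 14. Within replicate 1 the count of Mir369 was 23.5 times that of Mir410 (exact 95% interval 13.8 to 43.5) and within replicate 2 it was 17.9 times (10.4 to 33.1). The widest gap between adjacent detected members was from Mir377 to Mir541, 381-fold in replicate 1 and 176-fold in replicate 2. Across the 46 detected members Spearman's rho of level with position was -0.20 and with the GC content of the hairpin 0.19, given as descriptions over members that share 2 libraries.

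The order of the members was much the same in both libraries. Spearman's rho of CPM between the libraries was 0.97 over the 46 detected members, and 0.97 over the 310 detected genes outside the cluster. The SD of the log2 ratio of replicate 2 over replicate 1 was 0.59 over the members and 0.86 over all 356 detected genes. The cluster total had a log2 ratio of -0.09 (exact 95% interval -0.12 to -0.07) when scaled to assigned counts. With TMM scaling it was -0.14 (-0.16 to -0.12), and with Mir451a and Mir144 out of the totals -0.12 (-0.15 to -0.10). With DESeq2 size factors it was -0.01 (-0.03 to 0.01), so the difference of the total depended on the scaling. Under these size factors the median log2 ratio was -0.10 over the detected members, against 0.11 over all detected genes.

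**Figure D4:**
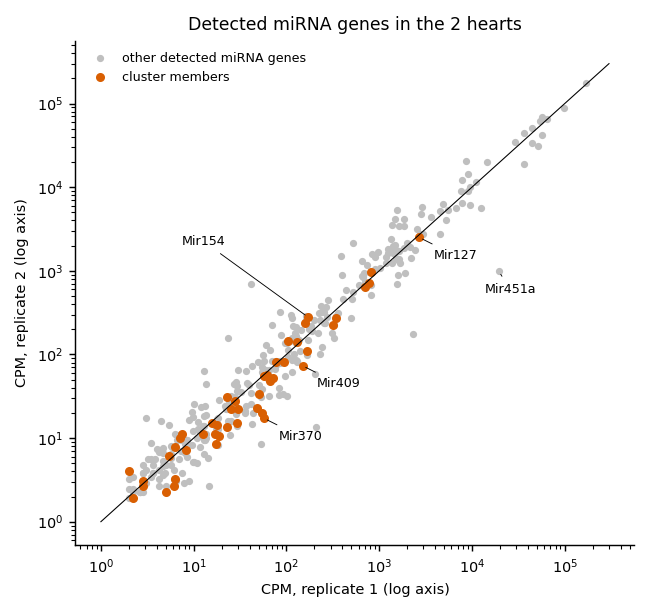
CPM in replicate 2 against replicate 1 on log axes for the 356 detected miRNA genes, with the 46 detected members in orange and the line of equal CPM. The members follow the line over 3 orders of magnitude, and the red cell gene Mir451a lies far below it.

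Single members nonetheless differed between the libraries beyond counting error. The exact conditional binomial test, two-sided, with Benjamini-Hochberg adjustment over all 356 detected genes at 0.05, called 28 of 46 members (60.9%), against 63.5% of all detected genes. Such calls compare 2 libraries, not conditions. Of the members 23 (50.0%) were lower in replicate 2, against 30.6% of all detected genes, and 5 (10.9%) were higher, against 32.9%. The median log2 ratio of the detected members was -0.18, against 0.02 over all detected genes. Calls of at least 2-fold were made for 7 members (15.2%), against 17.7% of all detected genes. With DESeq2 size factors, which are equal for the libraries, 15 members were lower and 6 higher, against 25.3% and 36.8% of all detected genes; among the most abundant members Mir127, Mir541, Mir379 and Mir434 lost their calls, and Mir770 was called higher.

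Members called in opposite directions lay in the same segments. Of the detected members 1 of 5 between Meg3 and Rtl1 was lower and 1 higher, opposite Rtl1 3 of 5 were lower and 1 higher, and in Rian 2 of 2 were lower. Between Rian and Mirg 11 of 20 were lower and 2 higher, and in Mirg 6 of 13 were lower and 1 higher. The only detected member in Meg3, Mir770, was not called. Among all 356 detected genes 30.6% were lower and 32.9% higher. Several segments hold few detected members, and differences between segments were not tested.

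The widest differences among members with a mean of at least 100 counts were in Mir370, Mir376c, Mir341 and Mir409. Mir370 had 283 counts in replicate 1 and 90 in replicate 2, a log2 ratio of -1.73 (exact binomial adjusted p = 2.40e-26). Mir376c had 268 and 105 counts, a log2 ratio of -1.43 (exact binomial adjusted p = 2.58e-19). Mir341 stood at -1.08 and Mir409 at -1.02, so that all 4 were lower in replicate 2 by more than 2-fold. The 5 members that were higher in replicate 2 were Mir154 with a log2 ratio of 0.71, Mir487b with 0.58, Mir431 with 0.48, Mir673 with 0.43 and Mir411 with 0.22. Mir381, with 138 and 146 counts, and Mir134, with 283 and 289, were not called.

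**Figure D5:**
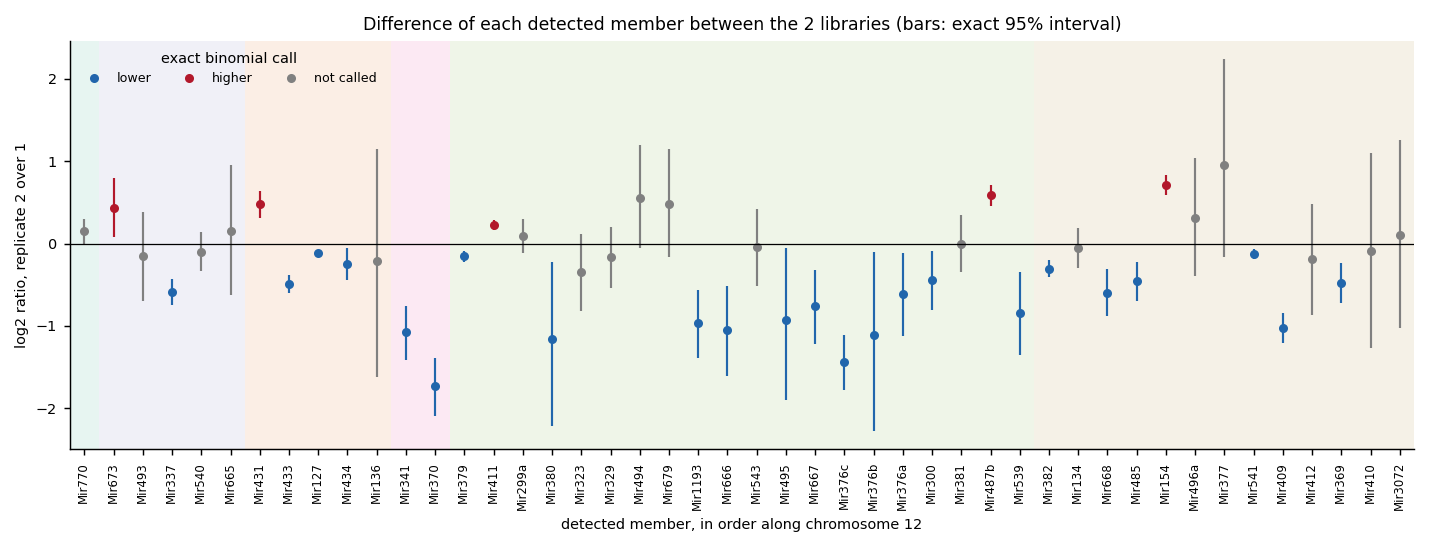
Log2 ratio of replicate 2 over replicate 1 for the 46 detected members in order along chromosome 12, with exact 95% intervals and colours for the binomial call. Blue points (lower) number 23 and red points (higher) 5, and both colours occur in 4 of the 6 shaded segments.

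Count ratios of 2 members within a library need no scaling, and they show the unequal differences directly, for pairs chosen after their values were seen. In Mirg, the count of Mir154 was 1.15 times that of Mir409 in replicate 1 (exact 95% interval 1.04 to 1.27) and 3.81 times in replicate 2 (3.41 to 4.28), with starts 4.73 kb apart. Upstream, the count of Mir487b was 2.89 times that of Mir376c in replicate 1 (2.51 to 3.34) and 11.7 times in replicate 2 (9.61 to 14.5). Opposite Rtl1, the count of Mir431 was 0.330 times that of Mir433 in replicate 1 (0.298 to 0.365) and 0.645 times in replicate 2 (0.588 to 0.707). In these 3 pairs the intervals of the libraries do not overlap. The count of Mir376c was 10.7 times that of its relative Mir376b in replicate 1 (7.11 to 16.9) and 8.75 times in replicate 2 (4.80 to 17.5), with intervals that overlap. Mir376b shares a run of 20 bases with Mir376c and with Mir487b. Reads placed at several loci are not counted, so the ratios with these members are uncertain beyond their intervals.

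Of the 5 listed pairs with a shared seed, 3 had both members lower in replicate 2. Single members were called lower in 50.0% of the detected members and 30.6% of all detected genes. Mir1193 is in both the AGGUCAC and the GGUAGAC pair. Whether pairs with a shared seed differ from other pairs was not tested. Mir370 and Mir1193, with AGGUCAC, had log2 ratios of -1.73 and -0.97, Mir376c and Mir376b, with UGGAUAU, -1.43 and -1.11, and Mir379 and Mir1193, with GGUAGAC, -0.15 and -0.97. With DESeq2 size factors Mir376b and Mir379 lost their calls, with adjusted p of 0.0722 and 0.0758 in the exact binomial test. Mir379 and Mir411, with AUGUAAC, were called in opposite directions, at -0.15 and 0.22. Mir494, at 0.56, and Mir410, at -0.09, which share GGUUGUC, were not called.

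Marker miRNAs of other cell types and of blood were compared between the same libraries. Red cell miRNAs, 2 of 2 detected, were 18.8-fold lower in replicate 2, and with both left out of the totals 23 members were called lower and 5 higher, against 31.5% and 30.1% of all detected genes. Smooth muscle and fibroblast miRNAs, 5 of 6 detected, summed to 31915 CPM in replicate 1 against 40639 CPM in replicate 2, endothelial ones, 1 of 2 detected, to 56393 and 69423 CPM, and those of leukocytes, 4 of 5 detected, to 4788 and 5126 CPM. Among the leukocyte entries Mir142 was 1.85-fold lower in replicate 2, Mir150 and Mir223 were higher, and Mir155 was not called. Epithelial miRNAs, 4 of 5 detected, summed to 325 and 354 CPM, of which Mir200c, higher in replicate 2, held 226 and 317 CPM, while Mir200b was 6.34-fold and Mir429 2.09-fold lower. Of 7 neuronal entries only Mir137 was detected, with 1010 counts in replicate 1 and 305 in replicate 2, and the list summed to 207 and 59.5 CPM. The defining Mir124a genes were at 0, but the 3 copies share sequence and reads placed at several loci are not counted. The part of these cell types in the differences of the members was not tested.

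Other imprinted miRNA genes were compared by level and direction. Of 119 miRNA genes inside Sfmbt2 on chromosome 2, another large imprinted cluster, 7 were detected and all summed to 0.129% of assigned counts, but 117 of them share a run of 20 bases with another listed gene, as 8 of the 59 Dlk1-Dio3 members do. Of these 7 detected genes 5 were higher and 2 lower in replicate 2. Of Mir335, Mir675, Mir483, Mir296 and Mir298, 4 were detected, of which 3 were higher and Mir296 was lower, at a log2 ratio of -0.77. Whether the cluster differs from these sets in direction was not tested.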

How the data were processed

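Small RNA below 30 nucleotides from heart was sequenced in 2 libraries. The authors deposited raw read counts for each miRNA gene in 3 columns without names, taken as unstranded, same-strand and opposite-strand from their layout and values. The build is mm10, per the labels, the annotation GENCODE M21, per the text deposited with the files, and the aligner is not given in the sources used here. The same-strand counts were used, scaled to the column total without the 4 entries for reads in no gene, which left 37.3% and 36.4% of reads. All 2202 identifiers were matched to GENCODE M21. Depth was 4930853 and 5229819 assigned counts. Each of 356 genes with at least 10 counts in both libraries was compared by an exact conditional binomial test (scipy 1.17.1). The test was checked on simulated counts with known changes and counting error only, so variation between animals was not part of the check. Log2 ratios use a pseudocount of 0.5. With 1 library each, a contrast of replicate 2 against 1 leaves no residual degrees of freedom. Alternatives used edgeR 4.0.16 (TMM) and DESeq2 1.42.0 size factors, other minimums, columns, denominators and left-out libraries or members.

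The members and lists were chosen with earlier results of these data known. Named by rule were the 15 members highest in mean CPM, the highest and lowest detected of each segment, those averaging 100 counts or more whose absolute log2 ratio reached 1, those sharing a seed, and those at 0; others, such as Mir673, Mir376a, Mir134, Mir381, Mir412 and Mir377, were named after their values were seen. A host contains the miRNA gene on its strand, and only Meg3, Rian and Mirg were considered. Segments between hosts are named by both neighbours. A shared run is 20 bases of a hairpin found in a listed miRNA gene at another locus. Mature and hairpin sequences printed are from RefSeq.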

Additional observations from a re-analysis of the deposited data

How the results depend on the processing

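The cluster share of assigned counts, 0.726%, was 0.950% in the unstranded column, whose total is smaller, 0.268% of all reads, 0.613% without members that share 20 bases and 0.466% without Mir127, and ranged from 0.703 to 0.750% with either library left out. With a minimum of 100 counts 25 members were detected, and 39 in the unstranded column, which lists 7 members with an antisense miRNA gene at 0. The 23 lower members of 46 became 15 of 46 with DESeq2 size factors and 14 of the 25 tested with a minimum of 100 counts (56.0%, against 35.6% of all genes tested). The 5 higher members became 3 without sharing members. TMM scaling gave 23 and 5. With TMM scaling or DESeq2 size factors no member's call changed from lower to higher or the reverse. Signs of members that were not called are not covered by this. Of the 24 members named by rule 18 were called, and 13 of these kept the call with DESeq2 size factors. The rule takes in abundant members and wide ratios, so these counts describe the named members only. Among all 46 detected members 60.9% were called, against 63.5% of all detected genes. No paired analysis was possible because the labels give 1 group. With 2 libraries, the spread between them is known only coarsely, and members near 10 counts have wide intervals.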
